A study of Raphidocelis subcapitata with 493 samples.

Results

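This account concerns 100 genes of the unicellular green alga Raphidocelis subcapitata that were chosen for a rise with FC8diol at 100 µM and no rise with FC10diol at 100 µM. By their names both compounds are fluorinated diols, and the name of FC10diol carries the longer chain. The genes were chosen by the ratio R of the mean CPM (counts per 1000000 of the library) at 100 µM to that of the shared DMSO control, each with a pseudocount of 1, on the log2 scale and centred on the median gene with a DMSO level of at least 5 CPM. Of 13429 genes, 7773 reached 10 CPM with FC8diol at 100 µM, and 4539 of these had an R below 0.3 with FC10diol. The 100 of these with the highest R for FC8diol are the members, and they are numbered below by that rank.

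Growing cultures were kept for 24 h with one of 22 per- and polyfluoroalkyl substances in 0.33% solvent, and the title of the series gives points of departure as the aim. FC8diol and FC10diol shared 1 exposure with 3 DMSO libraries, and each had 3 libraries at each of 7 nominal concentrations (0.1, 0.3, 1, 3, 10, 32 and 100 µM), 45 libraries in all. The other 20 compounds were tested in 10 other exposures of similar design, each with its own DMSO libraries. Their concentrations were not all the same: PFTrDA was used at lower ones only. Some groups, such as PFHpA at 100 µM, had fewer than 3 libraries. No strain is given beyond the species, the homogenates are described as pooled, and P1, P2 and P3 in the labels number the 3 libraries of a group.

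Raphidocelis subcapitata is a freshwater alga with a single chloroplast that is widely used in toxicity tests because it divides fast and its growth is easily measured. Per- and polyfluoroalkyl substances carry a fluorinated carbon chain that repels both water and oil and resists breakdown, and a diol carries a pair of hydroxyl groups. The deposited tables hold bare gene identifiers, and since these were not annotated here, no function is given to any member.

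The 45 libraries of this exposure held between 831287 and 1453706 counts, with a median of 1110714, and the 493 libraries of the series held between 259836 and 2470296. At these depths 1 CPM is close to 1 count, and 34 members had fewer than 10 CPM in DMSO. The 3' tag libraries measure each transcript as a share of its library, so fewer cells and less RNA per cell cannot be told apart, nor can either be separated from a change in the share alone. No replicate pair agreed within counting noise (39 pairs, DMSO and both compounds at 0.1 to 32 µM, chi-square per degree of freedom 2.01 to 5.54), so none was counted as 1 sample, which does not show that the libraries came from separate cultures.

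The values that chose the members are given as a description, without a test. R for FC8diol ran from 0.70 to 3.19 with a median of 0.87. It was at least 2 in 3 members, from 1 to 2 in 26 and below 1 in 71, whereas the median over all 7773 genes at the floor was 0.05. R for FC10diol ran from -3.06 to 0.29 with a median of -0.23, lay below 0 in 62 members and lay below -1 in 17. Centring mattered for the second measure, because the median gene stood at -0.49 against DMSO with FC10diol at 100 µM and at -0.09 with FC8diol. The edge of the list was smooth: the members of ranks 99 and 100 had R values of 0.699 and 0.698 for FC8diol, and the next 2 genes, which were not members, both had 0.693. The same rule kept 63 of the members without replicate 1 of DMSO and 61 without replicate 3.

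Members differed widely in level. Their mean in DMSO ran from 1.2 to 1167.7 CPM with a median of 17.8 CPM, and 14 members were at 100 CPM or more. With FC8diol at 100 µM the median level was 30.1 CPM, with a range of 10.1 to 2084.6 CPM. With FC10diol at 100 µM it was 8.2 CPM, with a range of 0.0 to 723.4 CPM. The members of ranks 1 and 2 were low in both other groups of the rule. Rank 1 was at 0.0, 2.85 and 1.72 CPM in the DMSO libraries, at 15.3, 23.05 and 23.3 CPM with FC8diol at 100 µM and at 0.86, 0.0 and 0.0 CPM with FC10diol at 100 µM. Rank 2 was at 0.69, 2.85 and 0.0 CPM in DMSO, at 11.5, 12.7 and 20.6 CPM with FC8diol at 100 µM and at 0.0 CPM in all 3 FC10diol libraries at that concentration. In both members the FC8diol libraries at 100 µM lay above all DMSO libraries. Over the whole list this held for 65 of the 100 members, and the share over all genes was not counted. The rule used these same libraries, so this separation is a description and not a test.

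Relative to 0.1 µM of the same compound, the median member stood at -0.01, 0.08, 0.15, 0.17 and 0.24 with FC8diol at 0.3, 1, 3, 10 and 32 µM. With FC10diol it stood at 0.0, 0.13, 0.23, 0.39 and 0.26 at the same concentrations. The 2 compounds parted at 100 µM, the concentration of the rule, where the medians were 0.64 with FC8diol and -0.40 with FC10diol. More members exceeded a log2 difference of 0.5 with FC10diol than with FC8diol at both 10 and 32 µM: 40 members with FC10diol at 10 µM (13.7% of all genes), 36 with FC10diol at 32 µM (15.98% of all genes), 14 with FC8diol at 10 µM (6.49% of all genes) and 21 with FC8diol at 32 µM (8.49% of all genes).

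**Figure D1:**
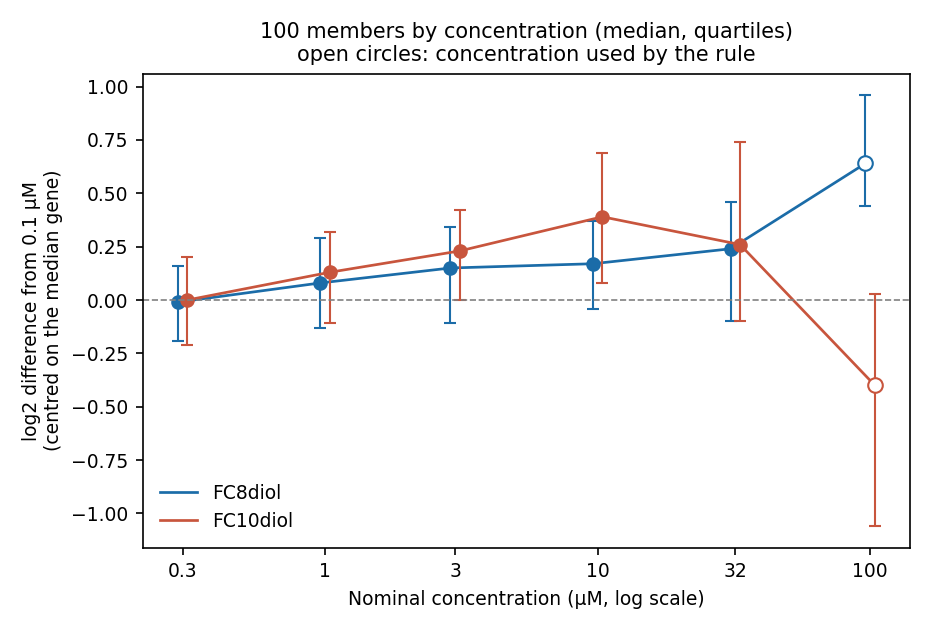
Median log2 difference of the 100 members from 0.1 µM of the same compound (vertical axis, centred on the median gene) against nominal concentration in µM (log axis), with quartiles as bars. The FC10diol median is 0.39 at 10 µM and -0.40 at 100 µM, and the FC8diol median climbs from 0.24 at 32 µM to 0.64 at 100 µM; open circles mark the concentration used by the rule.

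The DMSO and 100 µM libraries are those the rule used, so that their separation was fixed by the choice of members. The median deviation of the members from their mean over the 36 libraries at 0.1 to 32 µM lay between -0.435 and -0.318 in the DMSO libraries, between 0.188 and 0.290 with FC10diol at 10 µM and between 0.158 and 0.221 with FC10diol at 32 µM. At 100 µM it lay between 0.467 and 0.581 with FC8diol and between -0.728 and -0.566 with FC10diol. The DMSO libraries were thus the lowest outside FC10diol at 100 µM, and at 0.1 µM the median member was already above DMSO by 0.25 with FC8diol and by 0.20 with FC10diol. The DMSO mean of 25 members lay below all 12 groups at 0.1 to 32 µM, as it did for 517 of 9031 genes with a mean of at least 5 CPM. The rule uses the DMSO libraries, so a low DMSO value raises the chance of being chosen; its part in the list was not tested. For this reason the tests below of the change with concentration of each diol use 0.1 µM, not DMSO, as the reference.

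**Figure D2:**
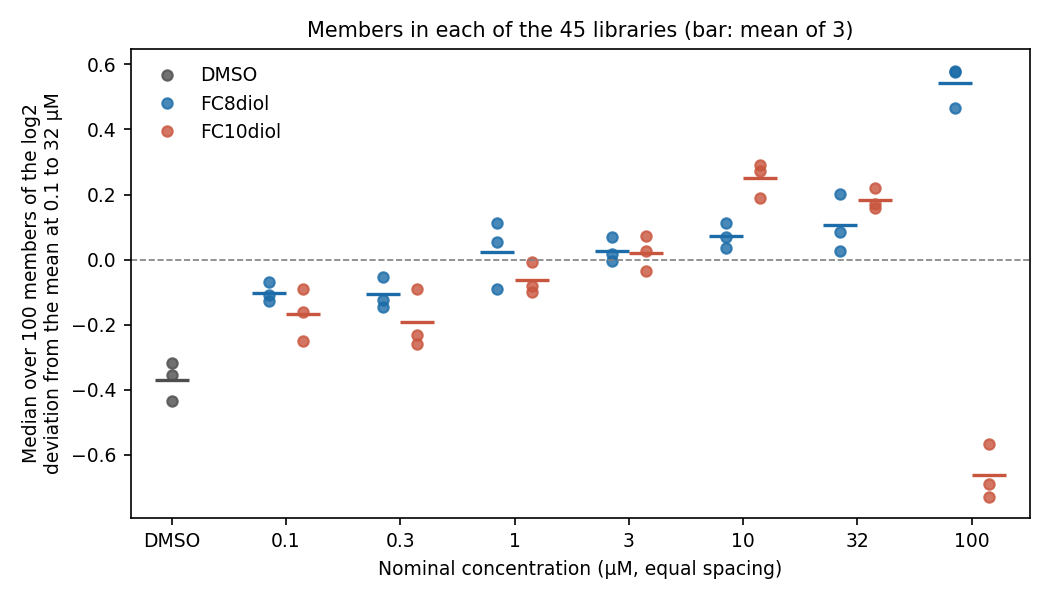
Median over the 100 members of the log2 deviation from the mean of the 36 libraries at 0.1 to 32 µM (vertical axis), 1 point for each of 45 libraries, by nominal concentration in µM (equal spacing), with bars for the mean of 3 libraries. FC8diol libraries at 100 µM lie at 0.467 to 0.581 and FC10diol libraries at 100 µM at -0.728 to -0.566, while the FC10diol libraries at 10 µM lie at 0.188 to 0.290.

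Whether the members rise with FC8diol outside the libraries that chose them was asked in the 36 libraries at 0.1 to 32 µM, which the rule did not use (edgeR quasi-likelihood test, Benjamini-Hochberg adjustment over 10241 genes, called at an adjusted p under 0.05). All 100 members were tested. At 32 against 0.1 µM of FC8diol, 3 members were higher and 0 lower, against 0.937% of all genes called higher and 0.625% called lower. They were Rsub_09468, Rsub_01440 and Rsub_07825, described below, and 15 members had an unadjusted p under 0.05, as did 1391 of the 10241 genes. The count of 3 was 1 without replicate 2 of FC8diol at 32 µM and 1 without replicate 3 at 0.1 µM. It was 5 with DESeq2, 7 with the labels' number as a block and 8 with 0.1 and 0.3 µM averaged as the reference. The shares of all genes called under these 3 settings are not given here, so the larger counts do not show a stronger response of the members. At 10 µM 0 members were called by edgeR and 0 by DESeq2, against 0.225% of all genes called higher by edgeR, and 13 members and 1011 of the 10241 genes had an unadjusted edgeR p under 0.05. At 0.3, 1 and 3 µM both tools called 0 members, and 2, 6 and 8 had an unadjusted edgeR p under 0.05, as did 298, 547 and 875 of the 10241 genes. A linear trend over the ranks of the 6 concentrations called 6 members higher with FC8diol, against 1.97% of all genes, and this count was 1 to 3 when the libraries of 1 number were left out.

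Rsub_09468, the member of rank 3, rose with both diols below 100 µM. With FC8diol it was at 9.01, 16.7 and 20.8 CPM at 0.1 µM, at 43.4, 50.5 and 50.4 CPM at 32 µM and at 107.2, 112.9 and 103.2 CPM at 100 µM. With FC10diol it was at 18.0, 12.4 and 13.4 CPM at 0.1 µM, at 65.4, 62.9 and 84.9 CPM at 32 µM and at 8.57, 4.67 and 4.97 CPM at 100 µM. All libraries at 32 µM of either compound lay above all at 0.1 µM, and the FC10diol libraries at 100 µM lay below all of them and below the DMSO libraries, which were at 13.1, 29.5 and 29.3 CPM. From 0.1 to 32 µM the log2 fold change was 1.67 ± 0.30 with FC8diol (SE, n = 3 per group, edgeR adjusted p = 0.00025) and 2.40 ± 0.30 with FC10diol (adjusted p = 5.6e-09). The difference between the compounds at 32 µM missed the threshold, at -0.61 ± 0.26 for FC8diol less FC10diol (edgeR adjusted p = 0.096). Among 8899 genes that are not members, the 3 whose group means over the 12 groups at 0.1 to 32 µM were most like it had Pearson r values of 0.977, 0.972 and 0.965, given as a description, since the groups share libraries of 1 exposure.

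Rsub_01440, the member of rank 67, was at 21.8, 26.5 and 20.01 CPM with FC8diol at 0.1 µM, at 50.3, 49.3 and 49.4 CPM at 32 µM and at 49.8, 38.0 and 61.0 CPM at 100 µM. The 32 and 100 µM libraries lay above all those at 0.1 µM, and the level was already reached at 32 µM. The log2 fold change from 0.1 to 32 µM was 1.17 ± 0.29 (SE, n = 3 per group, edgeR adjusted p = 0.017). This call was lost, with values of 1.08 to 1.16, when replicate 1 or 3 at 0.1 µM or replicate 1 or 2 at 32 µM was left out. With FC10diol it was at 23.2, 22.9 and 29.3 CPM at 0.1 µM and at 38.5, 32.0 and 34.8 CPM at 32 µM, a change of 0.62 ± 0.29 that missed the threshold (edgeR adjusted p = 0.15). At 100 µM of FC10diol it was at 6.00, 8.17 and 5.97 CPM, below all libraries at 0.1 µM. The 3 genes most like it among those that are not members had r values of 0.943, 0.893 and 0.864 over the same 12 groups. These are the highest among 8899 genes and are given as a description only. Of the 3 genes, 0 were called higher with FC8diol at 32 µM and 1 with FC10diol at 32 µM.

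Rsub_07825, the member of rank 26, moved in opposite directions with the 2 diols. With FC8diol it was at 348.3, 409.9 and 347.8 CPM at 0.1 µM, at 601.8, 656.8 and 608.5 CPM at 32 µM and at 649.3, 684.5 and 729.5 CPM at 100 µM. With FC10diol it was at 348.8, 314.0 and 286.7 CPM at 0.1 µM, at 138.5, 144.0 and 89.1 CPM at 32 µM and at 41.1, 57.2 and 40.8 CPM at 100 µM. The groups at 0.1 and 32 µM did not overlap with either compound. It rose by 0.79 ± 0.18 on the log2 scale with FC8diol from 0.1 to 32 µM (SE, n = 3 per group, edgeR adjusted p = 0.011) and changed by -1.23 ± 0.19 with FC10diol (adjusted p = 9.2e-06). At 32 µM its level was higher with FC8diol than with FC10diol by 2.29 ± 0.19 (edgeR adjusted p = 1.6e-11), and at 10 µM by 0.60 ± 0.18 (adjusted p = 0.025).

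**Figure D3:**
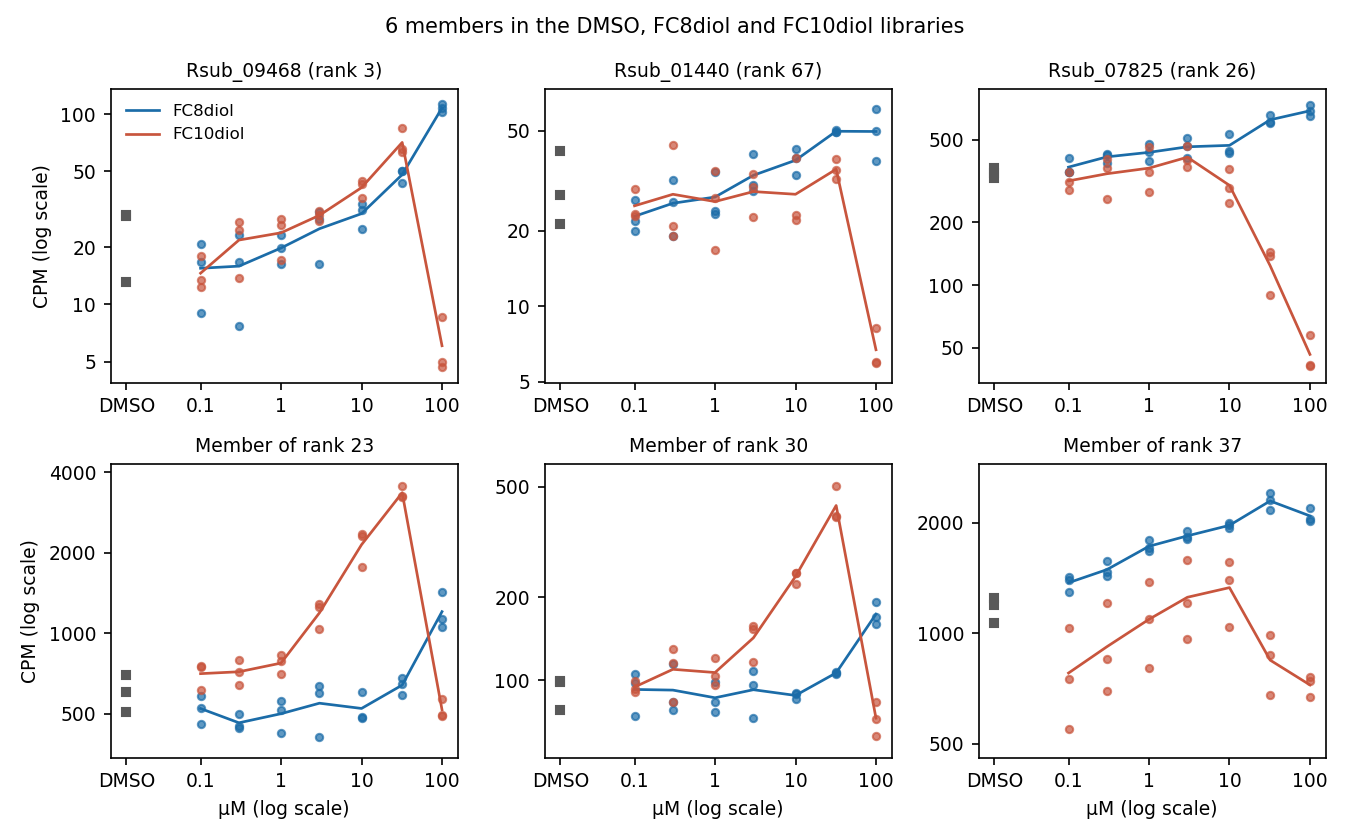
CPM (log axis) of 6 members against nominal concentration in µM (log axis, DMSO libraries as squares at the left), with 1 point per library and lines through the means of 3. The mean of Rsub_09468 is highest at 100 µM with FC8diol (107.8 CPM) and at 32 µM with FC10diol (71.0 CPM), the libraries of the 2 compounds do not overlap for Rsub_07825 at 10 and 32 µM, and the members of ranks 23 and 30 peak with FC10diol at 32 µM.

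By count, more members were called higher with FC10diol at 10 and 32 µM than with FC8diol at the same concentrations. Against 0.1 µM of FC10diol, 3 members, of ranks 23, 30 and 45, were higher at 3 µM, against 0.937% of all genes. At 10 µM 19 were higher and 0 lower, against 5.92% of all genes higher and 4.81% lower. At 32 µM 20 were higher and 3 lower, against 8.32% of all genes higher and 8.55% lower. These comparisons share the 0.1 µM libraries and their counts are not independent of each other. A trend over 0.1 to 32 µM was upward for 30 members and downward for 2, against 12.9% and 11.7% of all genes, and the count of 30 was 19 to 27 when the libraries of 1 number were left out. With library totals in place of TMM scaling the median of all genes stood at -0.11 at 10 µM and -0.14 at 32 µM, and the member counts became 17 higher and 1 lower at 10 µM and 15 higher and 3 lower at 32 µM; the split over all genes turned to 410 higher and 763 lower at 10 µM and to 589 higher and 1237 lower at 32 µM.

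Rises with FC10diol at 10 µM were found mostly among members of higher level. Of the 15 members with a mean of at least 100 CPM over the 36 libraries, 8 were higher at 10 µM (53.3%, against 15.7% of the genes of that level) and 8 at 32 µM (53.3% against 18.5%). Of the 39 members at 20 to 100 CPM, 10 were higher at 10 µM (25.6% against 5.25%) and 10 at 32 µM (25.6% against 7.9%). Of the 46 members below 20 CPM, 1 was higher at 10 µM (2.17% against 1.38%) and 2 at 32 µM (4.35% against 3.26%). Both shares are near those of the genes of that level. Split by R for FC10diol, 2 of the 17 members below -1 were higher at 32 µM of FC10diol. So were 9 of the 45 from -1 to 0 and 9 of the 38 at 0 or more. The share of all genes was 8.32%. R for FC10diol is a value of the rule, which kept it below 0.3. These counts are therefore a description, and a difference between the sets was not tested.

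**Figure D4:**
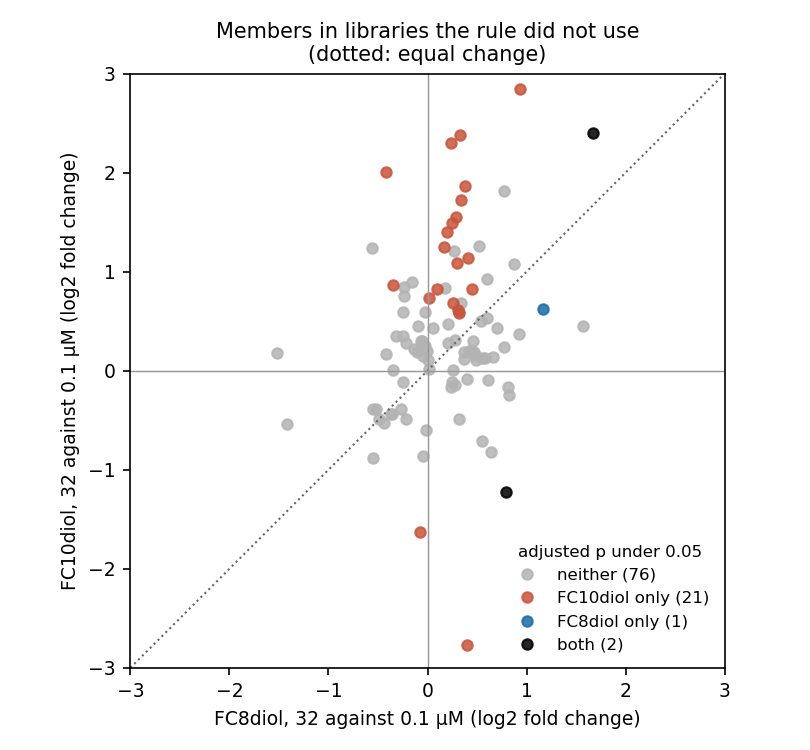
Log2 fold change of each of the 100 members from 0.1 to 32 µM with FC10diol (vertical axis) and with FC8diol (horizontal axis), coloured by which comparison passed an adjusted p of 0.05. There are 21 members called with FC10diol alone, most of them above the dotted line of equal change, 1 with FC8diol alone, 2 with both and 76 with neither.

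The member of rank 23 was higher with FC10diol at 3, 10 and 32 µM. It was at 613.3, 756.8 and 748.0 CPM at 0.1 µM, at 1035, 1285 and 1255 CPM at 3 µM and at 1770, 2340 and 2318 CPM at 10 µM. At 32 µM it reached 3246, 3567 and 3241 CPM, and at 100 µM it was back at 489.3, 495.1 and 568.0 CPM. The groups at 0.1, 3, 10 and 32 µM did not overlap, and the 100 µM libraries lay below those at 0.1 µM. With FC8diol it was at 459.4, 584.5 and 524.6 CPM at 0.1 µM, at 589.4, 682.1 and 648.0 CPM at 32 µM and at 1054, 1133 and 1426 CPM at 100 µM. The log2 fold change from 0.1 to 32 µM was 2.38 ± 0.13 with FC10diol (SE, n = 3 per group, edgeR adjusted p = 5.2e-22) and 0.33 ± 0.12 with FC8diol (adjusted p = 0.20).

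The members of ranks 30, 48 and 82 were also higher with FC10diol at 32 µM. That of rank 30 was at 91.1, 93.5 and 99.5 CPM with FC10diol at 0.1 µM, at 388.5, 501.8 and 392.9 CPM at 32 µM and at 72.8, 63.1 and 83.6 CPM at 100 µM. That of rank 48 was at 161.5, 150.8 and 135.4 CPM at 0.1 µM, at 389.3, 418.4 and 395.4 CPM at 32 µM and at 85.7, 82.9 and 112.4 CPM at 100 µM. That of rank 82 was at 777.4, 1001 and 851.6 CPM at 0.1 µM, at 1893, 2206 and 2258 CPM at 32 µM and at 498.7, 544.1 and 384.0 CPM at 100 µM. In all 3 members the 32 µM libraries lay above and the 100 µM libraries below every 0.1 µM library. Their log2 fold changes from 0.1 to 32 µM of FC10diol were 2.30 ± 0.17, 1.55 ± 0.14 and 1.40 ± 0.14 (SE, edgeR adjusted p = 6.4e-17, 4.9e-13 and 3.8e-11).

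Over all members, the highest FC10diol mean was at 10 or 32 µM in 63, against 22.4% of 9031 genes, and the lowest was at 100 µM in 88, against 52.2%. The choice of members with no rise at 100 µM of FC10diol favours both counts. The highest FC8diol mean was at 100 µM in 80 members, against 20.7% of genes, which the rule also favours.

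The 3 members lower with FC10diol at 32 µM were Rsub_07825 and those of ranks 12 and 57, the latter at low counts. That of rank 12 was at 15.5, 18.1 and 15.04 CPM at 0.1 µM and at 1.54, 1.14 and 3.39 CPM at 32 µM, without overlap. It changed by -2.77 ± 0.69 (SE, n = 3 per group, edgeR adjusted p = 0.0027). That of rank 57 was at 18.0, 14.3 and 16.7 CPM at 0.1 µM and at 3.08, 4.57 and 6.79 CPM at 32 µM, a change of -1.63 ± 0.57 (edgeR adjusted p = 0.039).

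The compounds were then compared directly at matched concentrations. Each comparison had 1 pair of compounds, and 6 concentrations were compared, each with its own adjustment over all genes. At 0.1 and 0.3 µM 0 members differed by edgeR, which over all 10241 genes called 1 higher at 0.1 µM and 0 at 0.3 µM. By DESeq2 3 members differed at 0.1 µM and 1 at 0.3 µM. The DESeq2 share of all genes is not given here, so these counts cannot be set against it. An unadjusted edgeR p under 0.05 was found at 0.1 and 0.3 µM for 13 and 16 members, and for 1239 and 1190 of the 10241 genes. At 1 µM the member of rank 23 was lower with FC8diol than with FC10diol, by -0.57 on the log2 scale, against 0.0488% of all genes lower. At 3 µM 1 member was higher and 5 were lower with FC8diol than with FC10diol, against 0.547% and 1.35% of all genes. At 10 µM 1 was higher and 13 were lower, against 4.61% and 6.66%. The count of 13 was 7 without replicate 2 of FC10diol and 8 without replicate 1 of FC8diol at 10 µM. At 32 µM 11 were higher and 18 lower, against 9.75% and 9.57%. The count of 11, which is near the share of all genes, was 7 without replicate 2 and 5 without replicate 3 of FC10diol at 32 µM. Members that missed the threshold are not shown to respond alike: at 32 µM the 95% interval of the difference had a median half-width of 0.74 on the log2 scale.

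The called differences at 32 µM ran from -2.43 to 2.49 for FC8diol less FC10diol. The most negative was that of rank 23, at -2.43 ± 0.13 (SE, n = 3 per group, edgeR adjusted p = 5.8e-22), and that of rank 30 was -2.04 ± 0.17 (adjusted p = 1.2e-14). The most positive was that of rank 2, at 2.49 ± 0.89 (edgeR adjusted p = 0.039), whose libraries at 32 µM were at 13.1, 2.41 and 10.9 CPM with FC8diol and at 2.31, 2.29 and 0.0 CPM with FC10diol. The member of rank 37 was also higher with FC8diol. It was at 2400, 2310 and 2159 CPM with FC8diol and at 986.3, 869.9 and 678.9 CPM with FC10diol at 32 µM, without overlap. Its difference was 1.40 ± 0.24 (SE, edgeR adjusted p = 0.00011). At 0.1 µM the levels of this member were also apart, at 1396, 1421 and 1298 CPM with FC8diol and at 1035, 753.0 and 549.9 CPM with FC10diol (0.87 ± 0.24, edgeR adjusted p = 0.14). The difference between its changes from 0.1 to 32 µM missed the threshold (0.53 ± 0.33, edgeR adjusted p = 0.49). The libraries are listed by number, and with FC10diol their order was the same at both concentrations. This fit did not pair libraries by number, so the missed threshold does not show that the changes were alike.

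A test of the difference between the 2 changes from 0.1 to 32 µM takes such offsets into account. By this test 1 member rose more with FC8diol, against 1.45% of all genes, and 8 rose less, against 2.29%. The member with the higher change was Rsub_07825, at 2.02 ± 0.26 (SE, edgeR adjusted p = 1.1e-06). The 8 with the lower change had differences from -0.73 to -2.06. The count of 8 was 4 without replicate 2 of FC10diol at 32 µM or of FC8diol at 0.1 µM, and 5 without replicate 1 of FC10diol at 32 µM or replicate 3 of either compound at 0.1 µM.

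The members' response to the other 20 compounds was taken from the highest concentration of each against the DMSO libraries of its own exposure. The rule used none of these libraries. The highest concentration was not the same for every compound. Between 96 and 100 members passed the filter on low counts in each fit. With PFTP 18 of 98 members were higher and 7 lower, against 9.76% and 6.56% of all genes. With PFOS 7 of 97 were higher and 1 lower, against 2.38% and 1.63%. With 6:1 FTOH, which had 2 libraries at the highest concentration, 6 of 98 were higher, against 1.09%. With N-EtFOSA-M 5 were higher, against 2.62%, and with FC8DoD 3 of 99, against 0.408%.

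With PFTDoDA and FHxSA, which like PFTP changed many genes, the member shares lay nearer to those of all genes or below them. With PFTDoDA 8 members were higher and 9 lower, against 11.2% and 9.82% of all genes. With FHxSA 7 were higher and 3 lower, against 6.26% and 7.31%. Over the 20 compounds 34 members were higher with at least 1, against 27.9% of 9867 genes, and 20 were lower with at least 1, against 24.9%. Compounds of the same exposure share DMSO libraries, so that their calls are not independent.

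**Figure D5:**
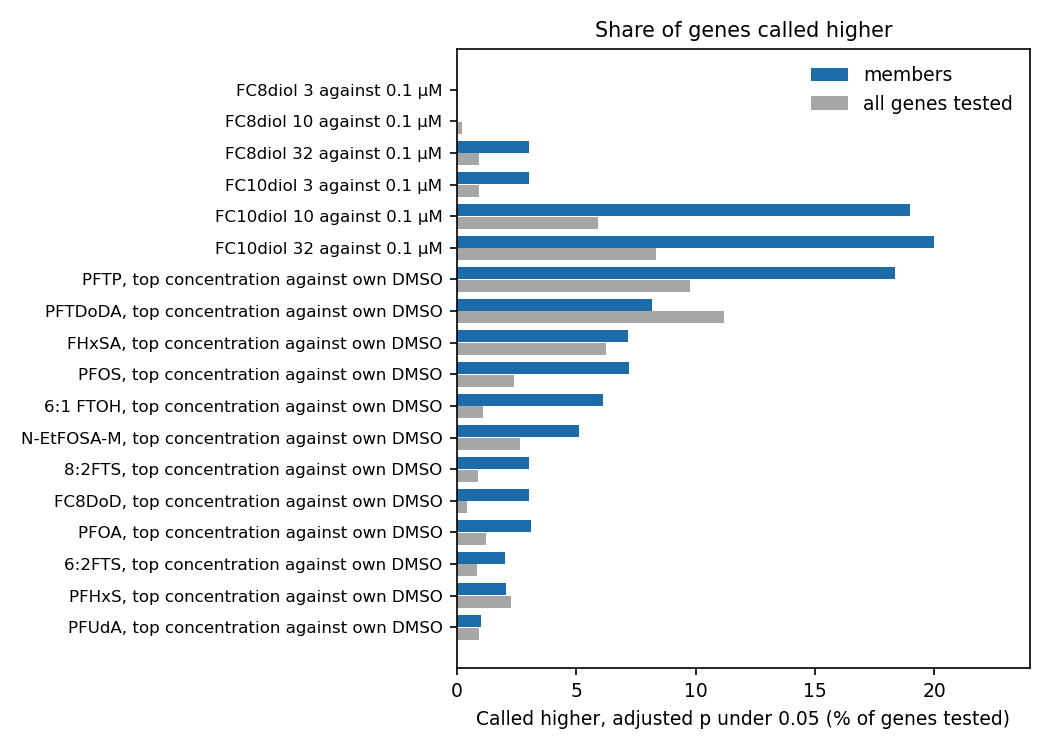
Percent of genes called higher at an adjusted p under 0.05 (horizontal axis) among the members (blue) and among all genes tested (grey), for FC8diol and FC10diol against 0.1 µM and for the 12 other compounds with at least 1 member called higher. The member share is 19% and 20% with FC10diol at 10 and 32 µM, against 5.92% and 8.32% of all genes, and it is below that of all genes with PFTDoDA.

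The named members also differed with other compounds. Rsub_09468 was higher with 6:1 FTOH, at 65.0 ± 22.6 CPM (SD, n = 2) against 8.10 ± 1.38 CPM in DMSO (SD, n = 3), a log2 fold change of 2.97 (edgeR adjusted p = 2.7e-05). It was also higher with 8:2FTS by 1.85 and with PFOS by 1.82 (edgeR adjusted p = 0.026 and 0.032). Rsub_07825, which fell with FC10diol, was higher with PFTDoDA, at 509.9 ± 79.0 CPM against 209.1 ± 10.0 CPM in DMSO (SD, n = 3 each), which is 1.29 on the log2 scale (edgeR adjusted p = 2.8e-11). It was also higher with PFOS, 6:1 FTOH and PFTP, by 0.98, 0.87 and 0.81 on the log2 scale. Rsub_02580, the member of rank 59, was at 11.1 ± 2.17 CPM in DMSO and at 2.89 ± 1.95 CPM with PFTP (SD, n = 3 each) and fell by 1.84 on the log2 scale (edgeR adjusted p = 0.017). With FC10diol the same gene was at 40.4, 38.2 and 30.9 CPM at 0.1 µM and at 93.9, 110.9 and 77.2 CPM at 32 µM, a rise of 1.49 ± 0.25 without overlap (edgeR adjusted p = 7.1e-06).

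The member of rank 91 was called higher with 8 of the other 20 compounds, the most of any member. Some of the 8 shared DMSO libraries, such as PFOS and PFOA, so these calls are not independent. How many of all genes were called with as many compounds was not counted. It was at 45.6 ± 5.602 CPM with PFTDoDA against 10.6 ± 0.72 CPM in DMSO, at 44.3 ± 7.73 CPM with PFOS against 13.8 ± 3.87 CPM and at 75.5 ± 11 CPM with PFHxS against 25.2 ± 2.98 CPM (SD, n = 3 each). The log2 fold changes were 2.09, 1.69 and 1.55. In the exposure with the diols it was at 11.7, 4.76 and 4.30 CPM in DMSO, at 14.5, 13.8 and 5.38 CPM with FC8diol at 100 µM and at 0.0 CPM in all 3 FC10diol libraries at 100 µM. The DMSO and FC8diol libraries overlapped in this member.

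The DMSO level of the members varied between exposures. Over the 11 DMSO means the range of a member had a median of 1.78 on the log2 scale, against 1.36 for the 9031 genes with a mean of at least 5 CPM, and 20 members had their lowest DMSO mean in the exposure with the diols, as did 1210 of the 9031 genes. By identifier number, 2 members were direct neighbours of another member (2.0%, against 1.5% of 8936 other genes) and 6 lay within 5 numbers of another member (6.0%, against 7.32%).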

How the data were processed

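Expression was measured in 493 polyadenylated RNA libraries made with a 3' tag kit. Per the labels' protocols the kit added molecular identifiers and RNA came from pooled homogenates of plate wells. The deposited files are 22 tables of raw whole-number counts per gene, and CPM were computed here as counts per 1000000 of the library total. Per the submitters' processing notes, featureCounts 2.0.6, SAMtools 1.15.1, STAR 2.7.10a and fastp 0.23.2 were used. Build, annotation and any collapsing of reads by identifier are not given in the sources used; without collapsing, part of a count is amplification. Overlapping or near-identical genes could share reads.

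Groups came from the labels, and DMSO columns held in both tables of an exposure were identical for 33 of 33 libraries. Nothing in the labels says that replicates were separate cultures; p-values therefore reflect only the spread between libraries, possibly a technical one. Solvents are described as DMSO or methanol, but control labels name DMSO; methanol controls were not analysed here.

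The 36 libraries of both diols at 0.1 to 32 µM were fitted together with 1 mean per group in R 4.3.3 with edgeR 4.0.16 (mean CPM of at least 1, TMM scaling, robust quasi-likelihood test). Each of the other 20 compounds was fitted with its own DMSO libraries. A gene was called at an adjusted p under 0.05, with Benjamini-Hochberg adjustment over all genes of a fit. Fold changes are log2 with SE, and intervals cover the spread between libraries. The edgeR SE is the size of the fold change divided by the square root of the F statistic of its test. These SE and the intervals built on them are therefore approximate. The fits were tested on simulated data. The alternatives were RLE size factors, library totals, other filters, DESeq2 1.42.0, the number in the labels as a block, other references and leaving out libraries.

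The members and the rules were chosen with earlier results of these data known. Gene lists by product could not be matched without annotation and were not tested. Identifiers are printed for at most 2 rising and 2 falling members: the called rises with FC8diol at 32 µM and the called falls with FC10diol at 32 µM that are largest, have a mean of at least 20 CPM and do not overlap, and, where falls were short, falls with another compound. The other members are given by rank and were picked after their values were seen. The alternative settings for the FC10diol and direct comparisons at 10 µM were added after seeing the data.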

Additional observations from a re-analysis of the deposited data

Results flagged for a closer look

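The change from 0.1 to 32 µM differed between FC8diol and FC10diol in 9 members by the test of the difference itself (edgeR, adjusted p under 0.05 over all genes, 3 libraries per group), with 1 higher and 8 lower with FC8diol. The 1 higher change was that of Rsub_07825 (rank 26), which was 0.79 with FC8diol and -1.23 with FC10diol, a difference of 2.02 on the log2 scale (adjusted p = 1.1e-06).

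Among the 8 members with the lower change, the differences for FC8diol less FC10diol were largest for ranks 30 and 23. They were -2.06 for rank 30 (changes of 0.24 and 2.30, edgeR adjusted p = 6.3e-09) and -2.05 for rank 23 (0.33 and 2.38, adjusted p = 2.5e-13). The difference was -1.48 for rank 11 (0.38 and 1.86, edgeR adjusted p = 0.046), -1.38 for rank 43 (0.34 and 1.72, adjusted p = 0.030) and -1.27 for rank 48 (0.28 and 1.55, adjusted p = 1.2e-05). It was -1.24 for rank 59 (0.25 and 1.49, edgeR adjusted p = 0.031), -1.20 for rank 82 (0.20 and 1.40, adjusted p = 1.9e-05) and -0.73 for rank 8 (0.41 and 1.14, adjusted p = 0.016).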

How the results depend on the processing

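Of the 100 members, 57 were kept without centring, 63 with a floor of 20 CPM and 62 with an FC10diol limit of 0. Leaving out 1 library kept 61 to 90, the lowest without a DMSO library, and leaving out 1 number kept 51 to 57; the causes were not tested. Counts of called members moved as follows, without the share of all genes under each setting beside them. FC8diol at 32 µM, main count 3: DESeq2 gave 5, 0.1 and 0.3 µM averaged as the reference 8, 10 µM in place of 32 µM 0 and leaving out libraries 1 to 4. FC10diol at 32 µM: 10 µM in its place left 0 lower, and leaving out libraries left 12 to 19 higher. FC10diol at 10 µM: library totals gave 1 lower, and leaving out libraries 7 to 22 higher and 0 to 1 lower. Direct comparison: leaving out libraries gave 3 to 10 higher and 9 to 17 lower at 32 µM and 0 to 7 higher and 7 to 15 lower at 10 µM. Difference of the changes: library totals, no filter and DESeq2 each gave 2 higher, and leaving out libraries 4 to 8 lower. Trends: 1 to 3 members were higher with FC8diol without 1 number, and with FC10diol 19 to 27 were higher and 0 to 2 lower; library totals gave 5 lower. Over the other 20 compounds, leaving out 1 number gave 23 to 56 calls higher (main count 65) and 12 to 29 lower (main count 28). Fits without a number have fewer libraries.

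The numbers in the labels were tried as a replicate block. With FC8diol, same-numbered libraries at 32 and 0.1 µM deviated with correlations of 0.21, 0.03 and 0.19 over 6404 genes. With FC10diol the correlations were 0.28, 0.02 and 0.22. Crossed numbers 1 and 3 gave -0.16 and -0.22 with FC8diol and -0.22 and -0.25 with FC10diol. Within a compound each 32 µM library correlated best with the 0.1 µM library of its own number. The 0.1 µM libraries of number 2 did not correlate best with their own number. Same-numbered libraries of both compounds at 32 µM deviated with 0.06, -0.01 and 0.11, and not all correlated best with their own number. The main fits leave the number out, so deviations shared by a number count as spread between libraries. With the block, 7 members were higher with FC8diol at 32 µM and 1 was lower with FC10diol at 10 µM. In the direct comparison at 10 µM 2 were higher, and 2 had the higher change. Over the other 20 compounds 84 calls were higher (main count 65) and 47 lower (main count 28). Shares of all genes under the block or DESeq2 are not given beside these counts or the next ones. At 3 µM of FC10diol (main count 3) library totals gave 1 member higher and the block 7. The direct comparison at 3 µM (1 higher and 5 lower) had 2 and 6 with DESeq2 and 5 and 7 with the block, and at 0.1 µM the block called 3 higher and 1 lower. The other alternatives moved the counts at 10 and 32 µM, of the trends and over the 20 compounds by no more than 1.5 times. Rsub_01440 lost its call in all 3 fits without a number, at 1.09 to 1.28, and Rsub_02580 with PFTP in fits without number 2 (-1.80) or 3 (-1.42). Of the 46 members below 20 CPM, 1 was called higher with FC10diol at 10 µM (2.17%, against 1.38% of the genes of that level).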
